A study of Homo sapiens with 4 samples.

Results

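The effect of a QPRT-targeting short hairpin RNA (shRNA) was examined in MDA-MB-468 cells alone, by comparing the library of cells with the QPRT shRNA with the library of cells with a control shRNA. The genes described were chosen by expression, as those with a mean of at least 1 FPKM (fragments scaled to transcript length in kilobases and to the sequencing depth) over these 2 libraries, and the rule used no difference between them. It kept 13988 of the 50653 genes listed. The series holds 4 libraries, 1 for each combination of a line of triple-negative breast cancer cells, MDA-MB-468 or BT-20, with an shRNA. In both groups described here the cells were MDA-MB-468 cells that had been stably transduced with a lentivirus made from the pLKO.1-puro vector, so control cells also carried an integrated vector, its puromycin resistance gene and a hairpin. The groups are thus MDA-MB-468 with control shRNA and MDA-MB-468 with QPRT shRNA. As a model, the comparison is limited to 1 established line, kept in culture with no stroma or immune cells, and to the bulk RNA of 1 culture for each hairpin.

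QPRT (quinolinate phosphoribosyltransferase) joins quinolinate, which cells make from tryptophan through the kynurenine pathway, to phosphoribosyl pyrophosphate and so forms nicotinic acid mononucleotide. That product enters the Preiss-Handler route to nicotinamide adenine dinucleotide (NAD), the carrier of electrons in energy metabolism and the substrate of sirtuins and poly(ADP-ribose) polymerases. Most cultured cells also make NAD from nicotinamide through NAMPT, the salvage route. The study asked how QPRT bears on the migration and invasion of breast cancer cells and on phosphorylation of the myosin light chain, and RNA sequencing was used to list the genes that differ after QPRT knockdown.

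With 1 library on each side there is no replicate check of any difference below, and no p-value is given. Differences are given as log2(FPKM + 1) with QPRT shRNA minus log2(FPKM + 1) with control shRNA, which understates the difference of genes with low FPKM. The interval beside a difference is the exact (Clopper-Pearson) 95% interval of the log2 ratio of the fragments behind both values, without the added 1. It covers counting error only, because PCR copies of a molecule could not be told from separate molecules, and it says nothing of the spread between cultures. In bulk RNA, fewer cells of a type and less RNA per cell cannot be told apart.

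The libraries were checked against markers of the line. Keratin 19, a simple epithelial keratin, stood at 2850 FPKM in control cells and 2981 with QPRT shRNA. EPCAM was at 359 and 342 FPKM. Both libraries thus held abundant epithelial RNA. Progesterone receptor (PGR) had no fragment in either library, and oestrogen receptor alpha (ESR1) was at 1.87 and 1.05 FPKM. ERBB2 was at 58.1 and 50.7 FPKM. Among genes known to be lost in MDA-MB-468, SMAD4 was at 0.279 and 0.0986 FPKM and RB1 at 1.61 and 1.96 FPKM. CDKN2A, known to be deleted in BT-20, was at 225 and 244 FPKM. The FPKM values of each library were scaled to 10945938 fragments in control cells and 10321995 in knockdown cells, as recovered from the steps between low values, so depth was near equal.

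QPRT itself had the lowest difference of all 13988 genes. QPRT lies on chromosome 16 from 29679008 to 29698699 on the plus strand (GRCh38, as annotated in GENCODE 29, from which all gene positions are taken). It was at 117 FPKM in control cells and 18.3 FPKM with QPRT shRNA, from 1938 and 285 fragments, a difference of -2.62 (interval -2.87 to -2.50). Transcript thus remained in cells with QPRT shRNA, though at a lower level than in control cells. In BT-20 cells the control and QPRT shRNA libraries had 249 and 40.5 FPKM for QPRT, a difference of -2.59.

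Of the 13988 genes, 162 were at least 2-fold higher with QPRT shRNA, which is 1.16% of them, and 126 were at least 2-fold lower, which is 0.901%. At 1.5-fold the counts were 827 higher (5.91%) and 538 lower (3.85%). Lower by any amount were 6678 genes (47.7%), and the median difference of all genes was 0.02, with the middle 50% of the genes between -0.19 and 0.23. Counting error alone covered part of the calls, since the interval lay above 0 for 133 of the 162 higher genes and below 0 for 111 of the 126 lower ones. Most called genes were of low abundance, as 71 of the higher and 40 of the lower genes had a mean of at least 5 FPKM. Nearest the minimum of 1 FPKM, SRSF9P1, a processed pseudogene with 0.172 and 1.83 FPKM, was just inside it and MEX3B, with 0.767 and 1.23 FPKM, just outside. Of the 1399 genes with the highest mean FPKM, only LGALS1 was 2-fold higher and 2 genes, AKR1B1 and S100A8, were 2-fold lower, and the plot of all genes shows both called groups thinning out towards high levels.

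**Figure D1:**
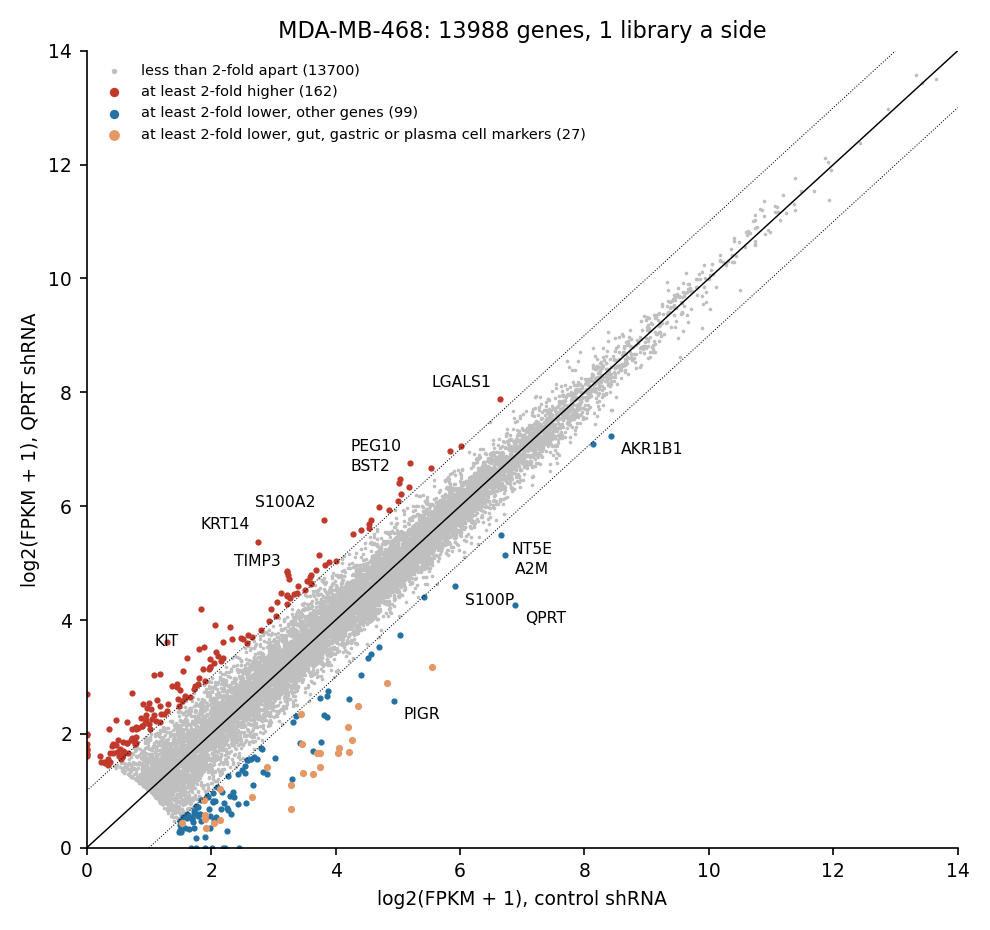
Each point is 1 of the 13988 genes in MDA-MB-468 cells, with log2(FPKM + 1) in the control shRNA library on the x axis and in the QPRT shRNA library on the y axis. The solid line marks equal values and the dotted lines a 2-fold difference. The 162 genes at least 2-fold higher are red, and of the 126 at least 2-fold lower, 27 genes that mark gut, stomach or plasma cells are orange and the other 99 blue.

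The differences followed the base composition of the transcripts. Across 13906 genes with an annotated transcript, which are not independent replicates, the difference had a Spearman rho of 0.290 with GC content and of -0.11 with log2 transcript length. In the tenth of genes with the lowest GC content the median difference was -0.12 and 66.3% of 1391 genes were lower. In the tenth with the highest GC content the median was 0.18 and 26.7% of 1391 genes were lower. In BT-20 cells the same genes ran the other way, with a rho of -0.276 with GC content. The main list medians below are therefore also given after removal of a smooth trend on GC content and length, which left a rho of -0.015 with GC content. After that step the higher genes past 2-fold numbered 140 and the lower ones 152. Whether the trend arose in the cells or in library preparation was not tested.

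**Figure D2:**
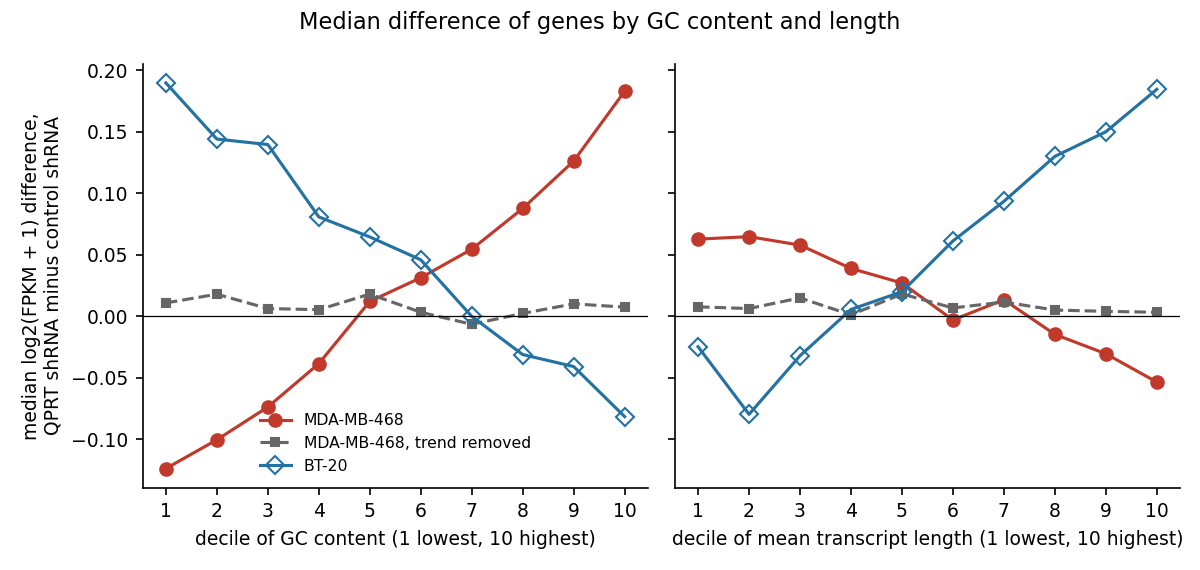
Median difference in log2(FPKM + 1), QPRT shRNA minus control shRNA, in 10 bins of the genes ranked by GC content (left) and by mean transcript length (right). MDA-MB-468 medians (red) climbed from -0.12 to 0.18 over the GC bins, BT-20 medians of the same genes (blue) went from 0.19 to -0.08, and MDA-MB-468 medians after removal of the trend (grey) stayed between -0.01 and 0.02.

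Differences were then read by function, over 75 gene lists, of which 69 held at least 10 of the genes. Among these 69, the medians of 10 lists stood at least 0.2 from the median of all genes. Below it were the lists for mitosis and spindle, kinesins, cholesterol synthesis, DNA replication, DNA repair, and mucins and other secreted epithelial proteins. Above it were replication-dependent histones, HOX genes, metallothioneins, and Wnt and Notch targets. A list is described by the counts and median of its members, and no test was made of a list against other genes.

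**Figure D3:**
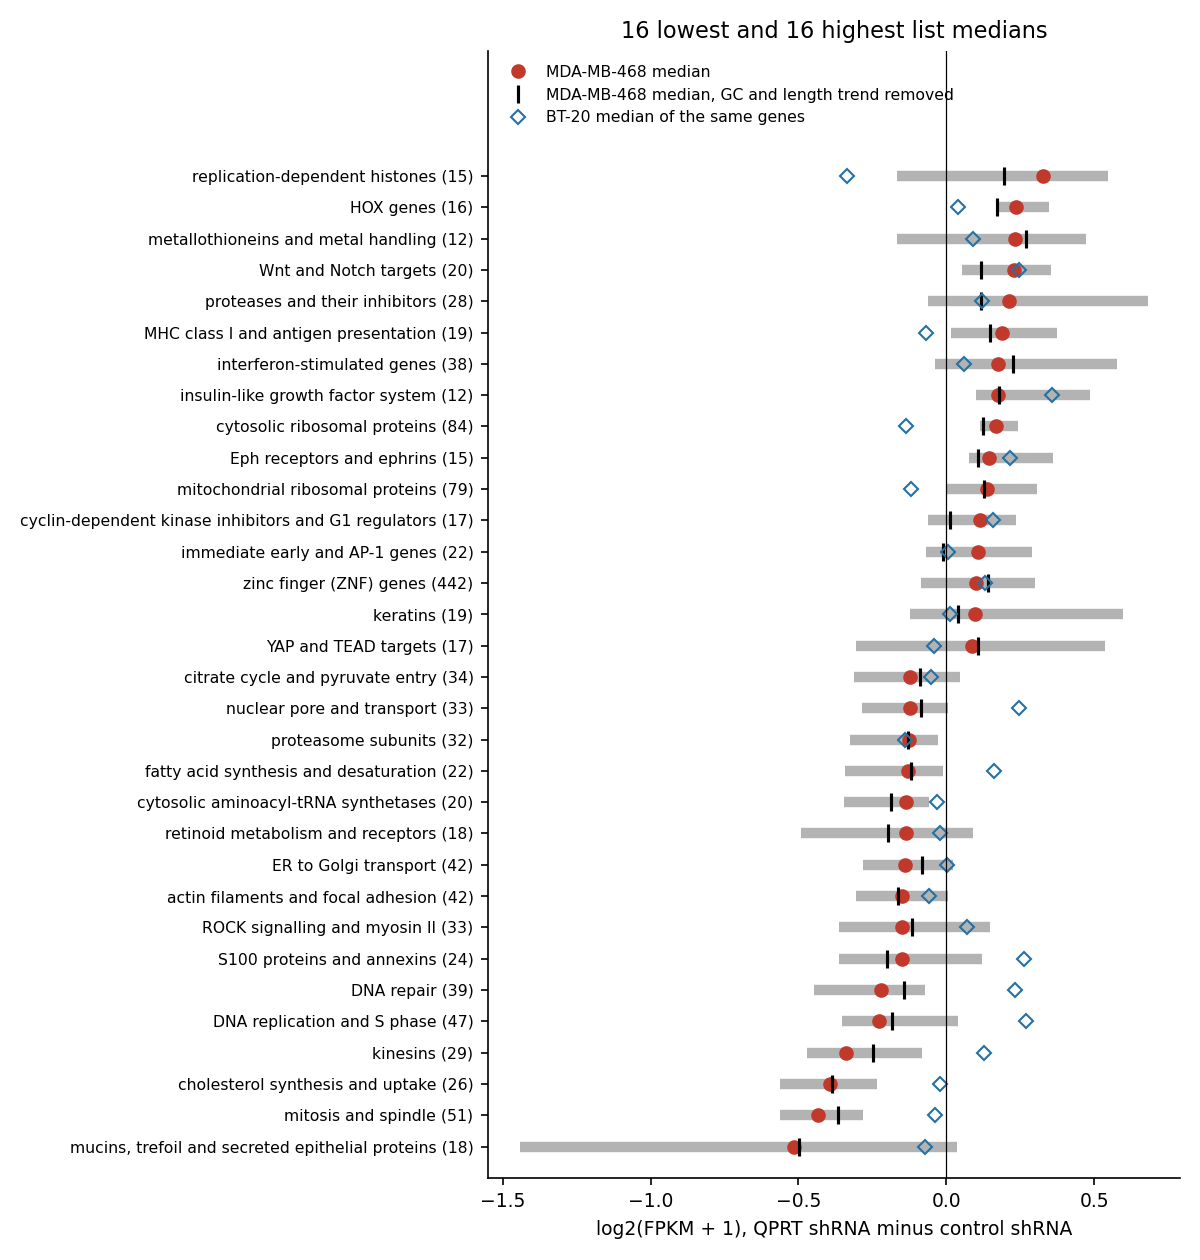
The 16 lists with the lowest and the 16 with the highest median difference in log2(FPKM + 1) among lists of at least 10 genes, with the number of genes in parentheses. Red points are MDA-MB-468 medians, grey bars the middle 50% of the genes, black ticks the medians once the trend was removed, and blue diamonds the BT-20 medians of the same genes. Mitosis and cholesterol synthesis stood lowest among lists of over 20 genes, at -0.43 and -0.39.

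Genes of mitosis were lower nearly as a block. Of 51 genes for spindle, kinetochore, mitotic kinases and cytokinesis, 50 were lower with QPRT shRNA, and 47 had an interval wholly below 0. The median was -0.43, and -0.37 after removal of the trend. None was 2-fold apart, but 11 were at least 1.5-fold lower and none 1.5-fold higher. KIF18A, a kinesin that dampens chromosome movement at the spindle equator, was at 21.6 FPKM in control cells and 10.96 with QPRT shRNA, a difference of -0.92 (interval -1.24 to -0.73). NUF2, a subunit of the kinetochore complex that grips microtubules, was at 33.9 and 18.9 FPKM. BUB1, a kinase of the spindle checkpoint, was at 42.9 and 25.9 FPKM. The lower level of each stood beyond counting error, as the interval of BUB1, -0.90 to -0.55, shows for the least of them.

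Core mitotic regulators such as CDK1 were lower too, but by less than KIF18A, NUF2 and BUB1. CDK1 still stood beyond the list median of -0.43. CDK1, the kinase that drives entry into mitosis, was at 80.6 FPKM in control cells and 55.2 with QPRT shRNA, a difference of -0.54 (interval -0.68 to -0.42). Its partner cyclin B1 (CCNB1) was at 110 and 82.5 FPKM, and cyclin A2 (CCNA2) at 18.6 and 11.6 FPKM. TOP2A, the topoisomerase that untangles replicated DNA, was at 142 and 103 FPKM. CDC20, an activator of the anaphase-promoting complex, was at 184 and 167 FPKM and PTTG1, or securin, at 141 and 131. UBE2S was the only gene of the list that was higher, at 193 and 208 FPKM, and its difference of 0.10 turned to -0.03 after removal of the trend. MKI67, the gene of the proliferation antigen Ki-67, was at 22.8 and 18.8 FPKM. In BT-20 the same 51 genes had a median of -0.04, with 31 of them lower. The difference between the lines was not tested.

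Many of these genes share promoter elements. In late cell cycle genes a CHR (cell cycle genes homology region) and CCAAT boxes are known to bind the MuvB complex with B-MYB or repressor proteins and NF-Y, respectively. RefSeq promoter windows (GRCh38.p14, from 250 bases before to 50 after a transcript start) were found for 43 of the 51 genes, as 55 windows. The letters TTTGAA, on either strand, stood in 61.8% of these windows, against 10.4% of the 15086 windows of all 13988 genes and 15.2% of all 35116 windows. CCAAT stood in 70.9%, against 34.9% and 34.6%. The stretches below are the 4 genes of the list with the lowest differences among those whose window holds TTTGAA before the start, and are shown to let the elements be seen in place. Capitals mark TTTGAA and CCAAT on either strand (TTCAAA and ATTGG when read on the other), and each ends before the RefSeq transcript start. The letters of both motifs can share at most 1 base.
KIF18A, chr11:28108157-28108213, minus strand: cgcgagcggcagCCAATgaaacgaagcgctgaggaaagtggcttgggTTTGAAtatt
ECT2, chr3:172750599-172750684, plus strand: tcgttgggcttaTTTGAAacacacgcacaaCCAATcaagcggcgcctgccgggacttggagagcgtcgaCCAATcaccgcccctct
DLGAP5, chr14:55191677-55191706, minus strand: cctttcaatcaaTTCAAAtatcgcacggag
KIF15, chr3:44761747-44761776, plus strand: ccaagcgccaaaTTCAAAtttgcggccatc

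Outside the list, genes with these letters had a median near that of all genes. Over 1375 genes outside the mitosis list with TTTGAA in a window, the median difference was -0.0016, beside 0.01 over all 10370 genes with a window. Within the list, 31 genes with TTTGAA had a median of -0.49 and 12 without it one of -0.41, but with the trend removed these medians were -0.39 and -0.40. A match is a description of the letters in the window and not of a bound site.

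Lists beside mitosis also stood low. Of 47 genes for DNA replication and S phase, 34 were lower, the median was -0.23 (-0.19 with the trend removed), and 2 genes were at least 1.5-fold lower. RRM2, the subunit of ribonucleotide reductase that makes deoxynucleotides for S phase, was at 143 FPKM in control cells and 91.4 with QPRT shRNA (difference -0.64, interval -0.75 to -0.55). The sliding clamp PCNA was at 300 and 252 FPKM. Not all genes of the list were lower, as the flap endonuclease FEN1 was at 84.3 and 121 FPKM and the helicase subunit MCM7 at 199 and 227 FPKM. Of 39 DNA repair genes, 31 were lower with a median of -0.22, and after removal of the trend the median was -0.14. FANCI, of the Fanconi anaemia pathway of crosslink repair, was at 43.3 and 23.9 FPKM. XRCC4, a scaffold of end joining, was the only one 2-fold lower, at 4.62 and 1.57 FPKM from 78 and 25 fragments. Of 29 kinesins, 22 were lower, with a median of -0.34 (-0.25 with the trend removed), and several of these are mitotic kinesins counted above.

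Regulators of entry into the cycle were mixed. Cyclin D1 (CCND1) was at 188 FPKM in control cells and 133 with QPRT shRNA, a difference of -0.49 (interval -0.59 to -0.41). Its kinase CDK6 went the other way, at 4.81 and 10.4 FPKM, a difference of 0.97 (interval 0.83 to 1.39). CDKN1C, an inhibitor of the cyclin-dependent kinases, was at 3.73 and 7.53 FPKM. Over the 17 genes of this list, 11 were higher and the median was 0.11, and 0.01 after removal of the trend. Replication-dependent histones, whose mRNAs mostly lack poly(A) tails and are poorly captured by poly(A) selection, had 9 of 15 genes higher and a median of 0.33. That median was 0.20 with the trend removed, 0.03 with no filter on low values and 0.55 from genes with at least 100 fragments. H2BC5 was at 16.6 and 28.3 FPKM, and H2AC25 at 36.8 and 21.5 FPKM.

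Genes of cholesterol synthesis were lower along most of the pathway. Of 26 genes, 25 were lower, 22 had an interval below 0, and 5 were at least 1.5-fold lower. The median was -0.39 and was the same to 2 decimals after removal of the trend. HMGCS1, which makes HMG-CoA at the head of the mevalonate pathway, was at 95.1 FPKM in control cells and 52.9 with QPRT shRNA, a difference of -0.83 (interval -0.97 to -0.72). FDFT1, which commits farnesyl units to sterols, was at 346 and 205 FPKM, and FDPS, which makes them, at 124 and 80.0 FPKM. Enzymes at the start and middle of the pathway were thus among those lower.

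Control genes of the pathway differed less. INSIG1, which holds the sterol sensor in the endoplasmic reticulum, was at 72.8 and 56.6 FPKM, and the transcription factor gene SREBF2 at 145 and 122 FPKM. SCAP, the escort of SREBF2 protein and itself not known as a sterol-regulated gene, was the only higher gene, at 49.4 and 58.5 FPKM. Fatty acid genes were lower in part, as 17 of 22 were lower with a median of -0.13 (-0.12 with the trend removed). The desaturase SCD was at 344 and 205 FPKM (difference -0.75, interval -0.78 to -0.72) and fatty acid synthase (FASN) at 721 and 498 FPKM (-0.53, interval -0.58 to -0.50), whereas the desaturase FADS2 was higher, by 0.66. In BT-20 the cholesterol list had a median of -0.02 and the fatty acid list one of 0.16.

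Sterol-regulated promoters are known to hold a sterol regulatory element beside CCAAT or SP1 sites. Windows were found for 19 of the 26 genes, as 24 windows. CCAAT stood in 18 of them (75%), against 34.9% of the windows of all the genes. The letters TCACNCCAC, with N any base, stood in 1 window, that of SREBF2, which is 4.17% against 1.03%. The stretch is shown because it is the only match in the list, with the match in capitals.
SREBF2, chr22:41832960-41832992, plus strand: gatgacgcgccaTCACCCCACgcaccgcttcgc

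Several of the highest differences were in genes of basal epithelium. KRT14, the type I keratin of basal cells, had the highest difference among genes with a mean of at least 5 FPKM and at least 100 fragments, at 5.76 FPKM in control cells and 40.6 with QPRT shRNA, from 72 and 479 fragments, a difference of 2.62 (interval 2.46 to 3.20). KRT14 lies on chromosome 17 from 41582279 to 41586921. Its neighbours in the same keratin cluster were also higher, with KRT16 (41609778 to 41615899) at 56.2 and 125 FPKM and KRT17 (41619441 to 41624842) at 237 and 373 FPKM. The 3 genes are close in sequence, so a share of their fragments may be misplaced among them. On chromosome 12, KRT5, the type II partner of KRT14 and far more abundant, was at 642 and 983 FPKM (difference 0.61, interval 0.57 to 0.66), and KRT6B, a keratin of activated epithelium, at 4.56 and 11.8 FPKM.

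Luminal keratins did not go with them. KRT8 was at 1719 and 1548 FPKM, KRT18 at 506 and 436, and KRT7 at 1979 and 1855. The gut keratin KRT20 was lower, at 12.4 and 2.18 FPKM, and belongs with the gut genes described below. Of 19 keratins and vimentin, 3 were 2-fold higher and 1 was 2-fold lower. In BT-20 cells KRT14, KRT16 and KRT17 differed by -0.20, -0.22 and -0.10. The list of breast lineage factors and receptors, which holds some of these keratins, had 9 of 23 genes higher and 14 lower, with a median of -0.10 and of -0.19 with the trend removed. Its 2-fold higher genes were KRT14, KIT and TP63, and its 2-fold lower genes were the trefoil factors TFF1 and TFF3. KIT, a receptor tyrosine kinase of luminal progenitors, was at 2.06 and 9.04 FPKM (difference 1.72). TP63, the transcription factor of basal epithelium, was at 0.998 and 3.54 FPKM from 23 and 77 fragments. CD24, a luminal surface glycoprotein, was lower at 3901 and 2647 FPKM.

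**Figure D4:**
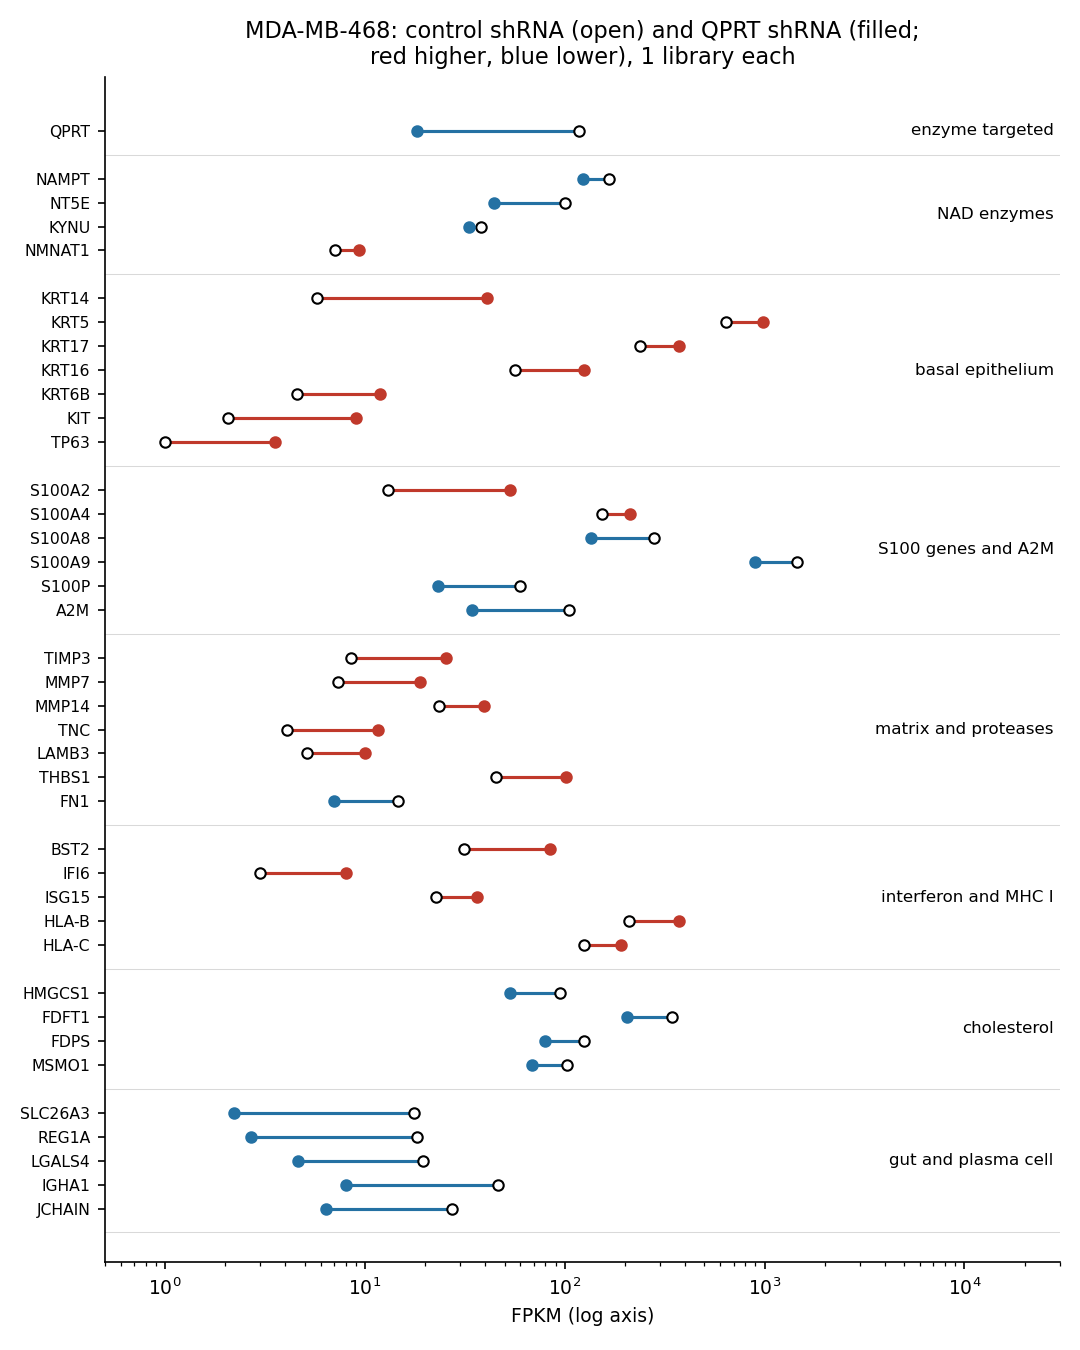
FPKM on a log axis of named genes in MDA-MB-468 cells with control shRNA (open) and QPRT shRNA (filled, red where higher and blue where lower), 1 library each, grouped by function. Among the genes shown, basal keratins and most matrix and interferon genes stood higher with QPRT shRNA, as KRT14 went from 5.76 to 40.6. Cholesterol enzymes and gut and plasma cell genes shown stood lower. The genes are a selection and do not stand for their lists, as 10 of 22 genes of laminins and matrix were higher.

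The S100 family split between neighbouring genes. S100 proteins are small calcium-binding proteins, and most of their genes lie side by side on chromosome 1. S100A2 (153561108 to 153567890), a gene of basal epithelium, was at 13.03 FPKM in control cells and 53.3 with QPRT shRNA, a difference of 1.95 (interval 1.70 to 2.38). S100A8 (153390032 to 153391188) and S100A9 (153357854 to 153361027), which form calprotectin, were lower, at 281 and 135 FPKM and at 1451 and 894 FPKM. S100A7, or psoriasin, was at 217 and 139 FPKM. S100P, which lies outside this cluster, was at 59.5 and 23.1 FPKM (difference -1.33, interval -1.61 to -1.12). S100A4, known from motile cells, was at 153 and 213 FPKM. Of 24 S100 and annexin genes, 16 were lower, with a median of -0.15 (-0.20 with the trend removed), and annexin A2 (ANXA2) was at 1235 and 1238 FPKM.

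Listed genes that build and cut the matrix stood higher at their extremes. Of 28 listed proteases and protease inhibitors, 18 were higher, 9 at least 1.5-fold and 4 at least 2-fold, and none was 1.5-fold lower. The median was 0.21, and 0.12 after removal of the trend. The list does not hold the protease trap A2M or the surface peptidase MME. These were lower, at 105 and 34.3 FPKM and at 65.6 and 33.7 FPKM. TIMP3, a matrix-bound inhibitor of metalloproteases, was at 8.55 FPKM in control cells and 25.5 with QPRT shRNA, a difference of 1.47 (interval 1.41 to 1.74). TIMP2 was at 14.6 and 27.5 FPKM. Metalloproteases were higher beside their inhibitors, with the secreted matrilysin MMP7 at 7.33 and 18.8 FPKM and the membrane-bound MMP14, an activator of MMP2, at 23.4 and 39.4 FPKM. KLK10, a secreted kallikrein-related peptidase, was at 5.02 and 12.3 FPKM, and ADAMTS1 at 1.30 and 4.13 FPKM. The membrane serine protease TMPRSS4 was lower, at 38.8 and 27.97 FPKM.

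Matrix proteins went in both directions. Tenascin C (TNC), a matrix protein of remodelled stroma, was at 4.07 and 11.7 FPKM (difference 1.32, interval 1.24 to 1.81). Thrombospondin 1 (THBS1) was at 45.5 and 101 FPKM, and the laminin chain LAMB3 at 5.16 and 10.1 FPKM. Fibronectin (FN1) was lower, at 14.7 and 6.996 FPKM (-0.97, interval -1.28 to -0.87). Of 22 genes of laminins and matrix, 10 were higher and the median was -0.01, which turned to 0.09 at a mean of at least 5 FPKM. Galectin 1 (LGALS1), a secreted lectin that binds matrix glycoproteins, was higher, at 98.4 and 235 FPKM.

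Interferon-stimulated genes were higher in part. Of 38 genes, 28 were higher, 10 at least 1.5-fold and 3 at least 2-fold, and none was 1.5-fold lower. The median was 0.18, and 0.23 after removal of the trend. BST2, or tetherin, which holds enveloped viruses at the cell surface, was at 31.3 FPKM in control cells and 83.9 with QPRT shRNA, a difference of 1.39 (interval 1.19 to 1.66). ISG15, a ubiquitin-like modifier, was at 22.7 and 36.2 FPKM, and IFITM1, a block to virus entry, at 6.12 and 12.4 FPKM. IFI6 was at 2.97 and 8.05 FPKM, and IFI44L at 0.158 and 2.06 FPKM from 3 and 37 fragments (interval 2.05 to 6.05). Not all of the list went with them, as GBP1, an interferon-induced GTPase, was at 24.9 and 17.1 FPKM.

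Genes of class I antigen presentation were higher in part as well. Of 19 genes, 15 were higher, 4 at least 1.5-fold, with a median of 0.19, and 0.15 after removal of the trend. HLA-B was at 211 and 372 FPKM (difference 0.82, interval 0.74 to 0.90) and HLA-C at 124 and 191 FPKM. These genes are close in sequence and a share of their fragments may be misplaced. NLRC5, the transactivator of class I genes, was at 8.96 and 14.8 FPKM, and the shared light chain B2M at 561 and 652 FPKM. In BT-20 the class I list had a median of -0.07 and the interferon list one of 0.06.

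Interferon-stimulated promoters are known by the ISRE (interferon-stimulated response element), bound by a complex of STAT proteins and IRF9. The letters GAAANNGAAA stood in 68.4% of the 38 windows of 30 genes of the list, against 2.72% of the windows of all the genes. The stretches are those of the 4 genes with the highest differences among those with a match before the start. Capitals mark matches, which can overlap each other, as in BST2.
IFI44L, chr1:78620272-78620396, plus strand: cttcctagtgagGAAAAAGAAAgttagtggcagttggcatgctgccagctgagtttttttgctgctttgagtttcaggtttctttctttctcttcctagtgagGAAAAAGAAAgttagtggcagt
BST2, chr19:17405733-17405772, minus strand: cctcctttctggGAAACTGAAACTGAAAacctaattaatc
IFI6, chr1:27672264-27672360, minus strand: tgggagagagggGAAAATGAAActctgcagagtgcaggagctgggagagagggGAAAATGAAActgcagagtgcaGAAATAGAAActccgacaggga
IFITM1, chr11:313988-314021, plus strand: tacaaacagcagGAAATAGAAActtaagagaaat

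IFI44L and IFI6 each hold a repeated stretch with the match. Over 361 genes outside the list with a match in a window, the median difference was 0.04, beside 0.01 over all genes with a window. Within the list, 23 genes with a match had a median of 0.18 and 7 without it one of 0.22, and with the trend removed 0.28 and 0.15.

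**Figure D5:**
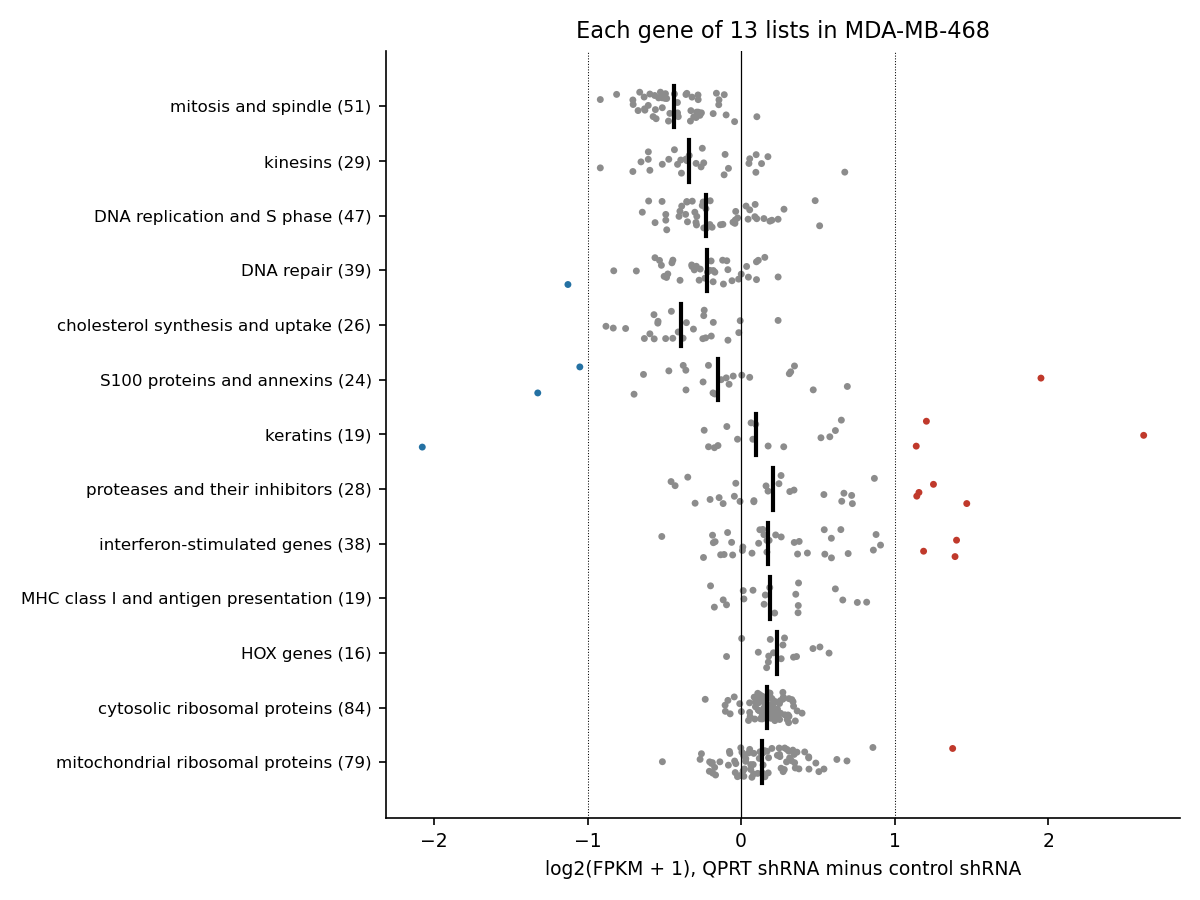
Difference in log2(FPKM + 1), QPRT shRNA minus control shRNA, of every gene in 13 lists in MDA-MB-468 cells, with the number of genes in parentheses. Black bars are list medians, dotted lines a 2-fold difference, and red and blue points genes past it. All but 1 of the 51 mitosis genes lie left of 0, and 77 of the 84 cytosolic ribosomal protein genes lie right of it.

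Several inflammatory genes outside the interferon list were lower. CSF3R, PYCARD and IL1RN were chosen after their values were seen. CSF3R, the receptor for granulocyte colony-stimulating factor, was at 13.5 FPKM in control cells and 5.34 with QPRT shRNA, a difference of -1.19 (interval -1.67 to -1.01). PYCARD, the adaptor of inflammasomes, was at 24.8 and 10.5 FPKM, and IL1RN, the antagonist of the interleukin-1 receptor, at 8.99 and 3.63 FPKM. Lipocalin 2 (LCN2), which binds bacterial siderophores, was at 173 and 106 FPKM. Over 26 chemokine and cytokine genes of the NF-kappa-B response, 15 were lower and the median was -0.08. That median turned to 0.02 from genes with at least 100 fragments and to 0.0066 with no filter on low values. ICAM1, an adhesion molecule of the same response, was higher, at 39.5 and 71.2 FPKM.

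Genes of translation and of the mitochondrion differed by small amounts over many genes. Of 84 cytosolic ribosomal protein genes, 77 were higher and 71 had an interval above 0, while none was 1.5-fold apart. Their median was 0.17, and 0.12 after removal of the trend. RPLP0 stood at 1846 and 2358 FPKM and RPL3 at 2139 and 2289. Of 79 mitochondrial ribosomal protein genes, 59 were higher, with a median of 0.14 (0.13 with the trend removed). Of 76 nuclear genes for oxidative phosphorylation, 49 were higher with a median of 0.08, and the 13 genes encoded in the mitochondrion had a median of 0.0040. In BT-20 these medians were -0.14, -0.12, -0.17 and -0.04. Among mitochondrial ribosomal proteins 4 genes were at least 1.5-fold higher, and none was 1.5-fold lower. MRPS24 was the only one past 2-fold, at 0.425 and 2.70 FPKM from 4 and 24 fragments, and MRPS2 was at 19.1 and 35.4 FPKM. The lowest difference was that of DAP3, at 284 and 199 FPKM. COX7C, a subunit of cytochrome c oxidase, was higher at 244 and 419 FPKM.

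Around QPRT, no other gene of the kynurenine route was 1.5-fold apart. Of the 7 genes of the route, QPRT itself among them, 5 were lower, 4 with an interval below 0. Both counts include QPRT, the target of the hairpin. The median was -0.22 (-0.11 with the trend removed). The kynurenine aminotransferases KYAT1 and KYAT3, which draw kynurenine off to kynurenic acid, were at 5.60 and 3.87 FPKM and at 35.1 and 28.2 FPKM. KYNU, the kynureninase upstream of QPRT, was at 38.04 FPKM in control cells and 33.0 with QPRT shRNA, and its difference of -0.20 became -0.05 after removal of the trend. KMO, which makes the substrate of KYNU on the way to quinolinate, was at 5.08 and 5.63 FPKM. NADSYN1, which completes NAD on the Preiss-Handler route, was at 74.0 and 74.6 FPKM.

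Over 13 genes of salvage, Preiss-Handler and NAD kinase steps, 7 were lower and 6 higher. The median was -0.06 (-0.03 with the trend removed). An interval lay below 0 for 2 genes, NAMPT and NT5E, and above 0 for 2 others. NAMPT, the rate-limiting salvage enzyme, was at 167 FPKM in control cells and 124 with QPRT shRNA, a difference of -0.43 (interval -0.53 to -0.33) that was -0.32 after removal of the trend. NT5E, the surface nucleotidase CD73 that splits extracellular mononucleotides, was at 100 and 44.2 FPKM (-1.16, interval -1.29 to -1.07). It was the only gene of 13 in salvage, Preiss-Handler and NAD kinase steps to be 1.5-fold apart, and in BT-20 it was higher, at 6.44 and 17.6 FPKM. Of 21 sirtuin, PARP and NAD glycohydrolase genes, 13 were higher, with a median of 0.07, and none was 1.5-fold apart. PARP1, the most abundant of them, was at 191 and 173 FPKM.

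Genes that lead from purinergic receptors to myosin were lower by small amounts. GNAQ, the Gq subunit that couples such receptors to phospholipase C, was at 22.7 FPKM in control cells and 14.8 with QPRT shRNA, a difference of -0.59 (interval -0.78 to -0.47), and was the only one of 17 genes 1.5-fold apart. P2RY2 was at 10.3 and 7.83 FPKM, and P2RY11 at 16.02 and 22.3. Of 33 genes of ROCK signalling and myosin II, 21 were lower, with a median of -0.15, and -0.12 after removal of the trend. Non-muscle myosin heavy chain MYH9, the most abundant of them, was at 996 and 768 FPKM (-0.37, interval -0.41 to -0.34). The light chain genes MYL12A and MYL12B were at 504 and 447 FPKM and at 634 and 593 FPKM. PPP1R12A, the targeting subunit of myosin phosphatase, was at 20.7 and 14.7 FPKM. The list's 2 genes at least 1.5-fold lower were CIT and ECT2, which act in cytokinesis, and ECT2 is in the mitosis list too.

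Actin and septin genes were lower in part. Of 42 genes of actin filaments and focal adhesion, 31 were lower and 11 higher, with a median of -0.15 (-0.16 with the trend removed). At least 1.5-fold apart were 2 lower genes, CAPZA1 and VIL1, and 2 higher ones, ARPC3 at 120 and 180 FPKM and PFN2 at 33.4 and 52.4 FPKM. CAPZA1, which caps the barbed end of filaments, was at 186 and 114 FPKM (difference -0.70, interval -0.81 to -0.61), and VIL1 of this list is a gut marker. SEPTIN2 was at 293 and 190 FPKM, and 6 of 9 septins were lower. Cadherin 1 (CDH1) was at 76.3 and 76.1 FPKM, and the 30 genes of junctions and desmosomes had a median of -0.0023.

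Some growth factor genes of the TGF-beta family were higher. TGFB1 was at 20.3 FPKM in control cells and 46.7 with QPRT shRNA, a difference of 1.16 (interval 0.97 to 1.43). BMP4 was at 6.79 and 17.4 FPKM. SMAD6, which inhibits BMP signals and is itself induced by them, was at 12.4 and 25.6 FPKM, whereas ID1, another BMP target, differed by -0.40. Secreted antagonists were higher as well. SOSTDC1, which binds BMPs and Wnt co-receptors, was at 2.56 and 17.2 FPKM (difference 2.36, interval 2.36 to 3.17). DKK1, an inhibitor of Wnt, was at 32.7 and 60.0 FPKM.

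Wnt and Notch genes stood a little above the rest. Of 20 genes, 17 were higher, with a median of 0.23, and 0.12 after removal of the trend. LGR6, an R-spondin receptor of epithelial progenitors, was at 1.27 and 7.30 FPKM from 27 and 146 fragments. JAG2, a Notch ligand, was at 3.40 and 7.45 FPKM. The 22 genes of the BMP and TGF-beta list had a median of 0.07, beside 4 genes at least 1.5-fold higher. Genes of the insulin-like growth factor system were higher for 10 of 12, with IGFBP3 at 361 and 498 FPKM and IGFBP5 at 69.7 and 123.4 FPKM. Of 17 YAP and TEAD targets, CCN2 was at 43.5 and 67.7 FPKM but CCN1 at 265 and 253 FPKM.

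Among HOX genes, which set position along the body axis, 15 of 16 were higher, with a median of 0.24 (0.17 with the trend removed) and none 1.5-fold apart. HOXC10 was at 28.7 and 37.1 FPKM, and HOXC9 at 6.31 and 9.12. Zinc finger (ZNF) genes, mostly transcriptional repressors, were higher for 287 of 442, with a median of 0.10, and 0.14 after removal of the trend. No ZNF gene was 2-fold apart.

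Stress and metabolic lists stayed near the median of all genes. List medians were -0.02 for 29 p53 targets, 0.01 for 24 ATF4 targets (-0.05 with the trend removed), -0.06 for 28 genes of the unfolded protein response, 0.01 for 25 hypoxia targets, -0.05 for 19 genes of glycolysis and -0.04 for 36 NRF2 targets and peroxiredoxins. Single genes stood out within them. HSPA1A, an inducible heat shock protein with a near-identical copy in HSPA1B, was at 35.3 FPKM in control cells and 79.4 with QPRT shRNA. The lactate and pyruvate transporter SLC16A1 was at 8.35 and 18.4 FPKM. AKR1B1, an aldose reductase, was at 343 and 150 FPKM (difference -1.19, interval -1.28 to -1.10) and lies among the NRF2 targets. DRAM1, a lysosomal membrane protein, was at 22.1 and 9.13 FPKM and was also lower in BT-20, by 1.01 on the log2 scale.

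Metal and iron genes varied in both directions. Metallothioneins bind zinc and copper, and MT1E was at 8.39 and 26.9 FPKM, MT2A at 651 and 888, but MT1G at 3.77 and 0.222 from 18 and 1 fragments (interval -9.47 to -1.42). The metallothionein genes are close in sequence and fragments may be misplaced among them. Ferritin heavy chain (FTH1) was at 795 and 1100 FPKM and the transferrin receptor (TFRC) at 228 and 153 FPKM. In retinoid metabolism, 13 of 18 genes were lower, with a median of -0.14. ALDH1A1 and ALDH1A3, which make retinoic acid, were at 22.7 and 9.58 FPKM and at 77.2 and 39.2 FPKM, and the retinoic acid carrier CRABP2 at 1033 and 706 FPKM.

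Among genes outside the lists, several with large differences rested on many fragments. Those of this and the next paragraph that the naming rule did not give, PEG10, A2M, UHMK1, RCSD1 and MME, were chosen after their values were seen. PEG10, an imprinted gene derived from a retrotransposon, was at 35.7 FPKM in control cells and 107 with QPRT shRNA, from 1437 and 4069 fragments, a difference of 1.56 (interval 1.499 to 1.67). SLITRK6, a neuronal membrane protein, was at 2.71 and 10.6 FPKM, RGCC, a regulator of the cell cycle, at 8.35 and 28.2, and the non-coding RNA LINC01235 at 8.32 and 27.8. FTHL17, an intronless ferritin-like gene, was at 1.46 and 11.3 FPKM, and EEF1A1P5, a processed pseudogene of the elongation factor EEF1A1, at 3.95 and 13.7. Fragments of EEF1A1P5 may come from EEF1A1, which was at 7496 FPKM in control cells.

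Lower genes outside the lists included A2M (alpha-2-macroglobulin, a protease trap), at 105 FPKM in control cells and 34.3 with QPRT shRNA, a difference of -1.58 (interval -1.79 to -1.43). UHMK1, a kinase that binds stathmin, was at 31.6 and 12.3 FPKM from 2458 and 903 fragments. RCSD1, which binds actin capping protein, was at 20.3 and 7.19 FPKM. MME, the surface peptidase CD10 of myoepithelium, was at 65.6 and 33.7 FPKM. RCSD1 was the least deeply measured of these, from 393 and 131 fragments.

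A further group of lower genes belongs to tissues other than breast. Of 34 intestinal epithelial genes, 22 had at least 20 fragments over the 2 libraries, and all 22 were lower, 18 of them at least 2-fold by fragments. Their list summed to 187 FPKM in control cells and 61.4 with QPRT shRNA. SLC26A3, a chloride transporter of the colon, was at 17.5 and 2.21 FPKM, REG1A, of regenerating gut and pancreas, at 18.2 and 2.70, and lysozyme (LYZ) at 12.4 and 1.69. All 8 gastric genes with at least 20 fragments were lower too, with pepsinogen C (PGC) at 15.5 and 2.16 FPKM, and the gastric list summed to 53.9 and 7.71 FPKM. The intestinal and gastric lists had 4 genes each with no fragment in either library.

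Immunoglobulin genes were lower beside them. Of 8 plasma cell and B cell genes with at least 20 fragments, 7 were lower. IGHA1, the heavy chain of IgA, was at 46.1 and 8.02 FPKM, the joining chain JCHAIN at 27.3 and 6.42, and IGHM at 10.1 and 1.496. IGHA1 and IGHA2 are near-identical and share reads. PIGR, the carrier of IgA across mucosa, was at 29.5 and 4.998 FPKM. The defining B cell gene MS4A1 had no fragment in either library, and the whole list summed to 354 and 247 FPKM, of which SDC1, an epithelial gene as well, made 218 and 217. T cell and macrophage genes summed to 24.4 and 31.8 FPKM and fibroblast and smooth muscle genes to 26.9 and 22.6.

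These gut, stomach and plasma cell genes made 27 of the 126 genes at least 2-fold lower and none of the 162 at least 2-fold higher. Without them the counts were 162 higher and 99 lower. The mitosis and cholesterol lists hold none of these markers, so leaving them out could not change the medians of these lists. In BT-20 the intestinal list summed to 83.6 and 45.4 FPKM. The median of 18 mucins, trefoil factors and secreted epithelial proteins, -0.51, was -0.18 without the marker genes. The part of another RNA source in the remaining differences was not tested.

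By position and class, the medians differed little. Medians by chromosome ran from -0.11 for 430 genes of the X chromosome, of which 284 were lower, to 0.14 for 1079 genes of chromosome 19, of which 306 were lower. Chromosome 19 is the most GC-rich here, and its median was 0.06 after removal of the trend, while that of the X chromosome was -0.10. The median was 0.01 for 12027 protein-coding genes and 0.06 for 486 long intergenic non-coding RNAs. Of 161 processed pseudogenes, 13 were 2-fold higher and 12 were 2-fold lower. These are larger shares than the 1.16% and 0.901% of all genes. Reads of a pseudogene may come from its parent gene.

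In BT-20 cells, of the same 13988 genes, 0.829% were 2-fold higher or more and 0.536% were 2-fold lower or more. Of the 162 genes at least 2-fold higher in MDA-MB-468, 4 were 2-fold higher and 4 were 2-fold lower in BT-20. Of the 126 lower genes, 18 were 2-fold lower there and 9 were 2-fold higher. Of those 18, 11 are markers of gut, stomach or plasma cells, and the other 7 were QPRT, DRAM1, PIGR, RBP2, TMPRSS15, SMIM24 and C6orf58, of which RBP2 and TMPRSS15 are also known from the intestine. With 1 library a side in each line, the difference between the lines was not tested.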

How the data were processed

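Total RNA of stably transduced MDA-MB-468 and BT-20 cells had been isolated with Trizol, made into libraries with a TruSeq RNA kit and sequenced on an Illumina NovaSeq instrument, with 1 library for each of 4 combinations of cell line and shRNA. The authors deposited FPKM values per gene after trimming and alignment. Their processing notes name FastQC, MultiQC, CASAVA, TopHat2 2.0.12 and HTSeq 0.6.1. The genome build and gene annotation are not given in the sources used here. Because FPKM rests on library size and transcript length, it does not correct for GC content.

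Genes with a mean of at least 1 FPKM over the 2 MDA-MB-468 libraries were kept (13988 of 50653), and differences were taken on log2(FPKM + 1). Fragments were recovered from FPKM with mean transcript lengths of GENCODE 29. Of the values above 0, 87.4% came out whole within 0.02, and 97.6% to 97.8% did for genes with 1 transcript. Intervals are exact 95% Clopper-Pearson intervals of the fragment ratio. The trend on GC content and log2 length was removed by lowess (fraction 0.3). With 1 library in each group no test between conditions was possible. Calculations used statsmodels 0.14.6, scipy 1.17.1, pandas 2.3.3 and numpy 2.4.6 under Python 3.11.15, and the calling and trend steps were checked on simulated data.

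The genes and the 75 lists were chosen with earlier results of these data known, so list counts are descriptions. Genes named are QPRT, the 10 highest and the 10 lowest differences among genes with a mean of at least 5 FPKM and at least 100 fragments, for each list its 2-fold genes, up to 4 further genes of large difference and its 3 most abundant genes, and genes of 13 lists of cell type markers. Genes named outside this rule (CCNA2, CCNB1, CDK1, MKI67, TOP2A, DLGAP5, FEN1, GBP1, INSIG1, SREBF2, SCAP, LGALS1, ID1, KMO, KYAT1, MYL12A, RPL3, RBP2, TMPRSS15, SMIM24 and C6orf58, beside those marked in the text) were chosen after their values were seen. Some genes of the lists are not reported here by name. Alternatives were another pseudocount, 2 other scalings, other filters, recovered fragments scaled to depth, removal of the trend and removal of gut, gastric and plasma cell markers.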

Additional observations from a re-analysis of the deposited data

Results flagged for a closer look

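Several values had opposite signs in the 2 cell lines, and with 1 library a side the difference between the lines was not tested. The Spearman rho of the difference with GC content was 0.290 in MDA-MB-468 and -0.276 in BT-20. With log2 transcript length it was -0.109 and 0.271.

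Among gene lists, the median of DNA replication and S phase genes was -0.23 in MDA-MB-468 and 0.268 in BT-20, and that of DNA repair genes -0.22 and 0.23. The median of kinesins was -0.34 and 0.127, and that of replication-dependent histones 0.33 and -0.335.

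Among named genes, NT5E differed by -1.16 in MDA-MB-468 and 1.32 in BT-20, IL1RN by -1.11 and 1.20, and S100A8 by -1.05 and 1.16. In the other direction, EVA1A differed by 1.09 and -0.588, TENT5B by 1.19 and -1.12, SPON2 by 1.43 and -0.727, and AARD by 1.44 and -0.886. EVA1A, TENT5B, SPON2 and AARD were flagged only for this contrast of signs.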

How the results depend on the processing

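Counts of 2-fold genes depended on the treatment of low values. The 162 higher and 126 lower genes became 359 and 295 with a pseudocount of 0.1, 71 and 40 at a mean of at least 5 FPKM, and 827 and 538 at a threshold of 1.5-fold. The lower count was 195 with no filter on low values and 76 from recovered fragments scaled to depth with at least 100 fragments. With no filter the Spearman rho was 0.172 with GC content and -0.044 with length. With the trend on GC content and length removed there were 140 higher and 152 lower genes, so that 47.9% of the called genes were higher, against 56.25% as reported. Leaving out gut, gastric and plasma cell markers, a choice made after seeing the data, left 162 higher and 99 lower genes and took the median of the mucin list from -0.51 to -0.18. The difference of QPRT, both correlations and the medians of the 10 lists that stood apart kept their sign under the alternatives run, and scaling shifted the median of all genes by at most 0.023 on the log2 scale. The median of the replication-dependent histones, over few genes, ranged from 0.03 to 0.55 over the alternatives. Medians within about 0.1 of 0 were less steady, as that of the immediate early and AP-1 list was 0.11 as reported and -0.01 with the trend removed, and those of the hypoxia, ATF4 and mitochondrially encoded lists turned below 0 under upper quartile and TPM scaling. No paired analysis was possible because each group had 1 library. For the same reason no replicate could be left out, and counting error alone bounds each difference.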

Other observations

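Some further gene groups stood a little to one side of all genes. Proteasome subunits, which make the protease of ubiquitin-marked proteins, were lower for 27 of 32 genes, with a median of -0.13 with and without the trend, and in BT-20 their median was -0.14. Cytosolic aminoacyl-tRNA synthetases, which charge tRNAs with amino acids, were lower for 17 of 20 genes, with a median of -0.14 (-0.19 with the trend on GC content and length removed). Genes of transport from the endoplasmic reticulum to the Golgi apparatus were lower for 30 of 42 genes, with a median of -0.14 (-0.08 with the trend removed). Nuclear pore genes were lower for 24 of 33 genes, with a median of -0.12 (-0.09 with the trend removed), against 0.25 in BT-20. Eph receptors and ephrins, which signal between touching cells, were higher for 12 of 15 genes, with a median of 0.15 (0.11 with the trend removed). None of these lists but the nuclear pore and Eph lists held a gene 1.5-fold apart.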
